A study of Spodoptera frugiperda with 18 samples.

Results

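The comparison set the egg of the fall armyworm, Spodoptera frugiperda, against its 6 larval instars, using 7 of the 18 small RNA libraries of a developmental series that runs from egg to adult. The members were the library labelled egg and the libraries labelled as larvae of instars 1 to 6, chosen by their labels and by no measured value. The fall armyworm is a moth with larvae that damage maize and other crops, and an instar is the larval stage between one moult and the next. No treatment, strain, genotype or rearing condition is given in the sources used here, nor the age of the eggs, the sex of the larvae, the number of insects pooled or the body parts taken. Each stage has 1 library. The egg was therefore judged against the spread of the 6 instars and was assumed to vary as they do, so that differences between instars count as error. The labels do not say that libraries came from separate cultures, and every p-value reflects the spread of these samples alone.

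The authors deposited raw counts for each miRNA, and the counts summed to 285485 in the egg and to between 230451 and 796582 in the instars. Levels are given as CPM, counts relative to library size, scaled with TMM factors, a correction for differences in composition that ran from 0.746 to 1.23 and was 0.768 in the egg. A count of 3 made 13.7 CPM in the egg and between 3.84 and 12 CPM in the instars, and this is the floor used below for a count of 0, per library in the egg and over all 6 instars together in larvae. Both floors and intervals take in counting error alone, since reads were not tagged to tell molecules apart. Vertebrate-named miRNAs, used as markers of RNA from outside the insect, stood out in instars 4 and 5: of 61 rows 8 were tested and 0 called by edgeR (0 at an unadjusted p under 0.05, 1 by DESeq2, 0 by limma), and their summed level was 9965 CPM in instar 5 and 1629 CPM in instar 4, against 59.3 CPM in the egg and 33.3 to 95.7 CPM in the other instars. Their part in the results was not tested. Leaving out instar 4 gave 119 called miRNAs and leaving out instar 5 gave 122, against 123 with all libraries.

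MicroRNAs (miRNAs) are short RNAs that are cut from hairpin precursors and guide Argonaute proteins to messenger RNAs. The bases next to the 5′ end, the seed, set most of the targets, so miRNAs that share a seed are read as 1 family, and a shift of the 5′ end changes the seed. In insects the egg receives miRNAs from the mother and the embryo then makes its own, and many miRNAs of muscle, gut, fat body and nervous tissue accumulate as these organs form. Names that begin with sfr- belong to this species. Names that end in -x, -y or -z were read as family names, with -x as the 5p arm and -y as the 3p arm. The sources used here do not state this reading, and some of these names, such as miR-10482-x, carry a number of this species. Names that begin with m are predictions of the authors, written here without the prefix that the deposited names carry.

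The sequences that carry the comparison are given from the deposited table, 5′ to 3′ as DNA letters, with bases 2 to 8, the seed, in capitals. The first pair shows the main form of miR-10 and a form that starts 1 base further in, so that the seed shifts with it.
sfr-miR-10-5p: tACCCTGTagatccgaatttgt
miR-10-x: aCCCTGTAgatccgaatttgtta

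A group of predicted miRNAs that was nearly absent from larvae shares 1 seed with the family row miR-2733-z.
miR-2733-z: tCACTGGGtatgtaataacat
m0041-3p: tCACTGGGtatgtaataacata
m0036-3p: tCACTGGGtgtagtgataatcg
m0045-3p: tCACTGGGtgttgtgataatcg
m0067-3p: tCACTGGGtgtgtgataataga
m0074-3p: tCACTGGGtggtttgataaccg

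A further group with the same pattern shares another seed, and a pair of near copies had a high level in the egg and a low one in larvae.
m0018-5p: tTAAGTAGgttatgtatgactt
m0063-5p: tTAAGTAGgttttgctggactt
m0005-5p: cCCAGTGTcgtgttaacgatct
m0026-5p: cCCAGTGTtgtgttaacgatct

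The forms of miR-2765, of the 3p arm of miR-317 and of sfr-miR-92a-3p differ in length at the 3′ end while keeping the seed. The longer form of sfr-miR-92a-3p is miR-92-y. miR-92-z shares their seed but differs from both in bases outside the seed, and not in length alone.
miR-92-z: aATTGCACcaatcccggcctg
sfr-miR-92a-3p: tATTGCACcagtcccggcctat
miR-92-y: tATTGCACcagtcccggcctataa
sfr-miR-2765-5p: tGGTAACTccaccaccgttggc
miR-2765-z: tGGTAACTccaccaccgttggcaa
sfr-miR-317-3p: tGAACACAgctggtggtatct
miR-317-y: tGAACACAgctggtggtatctcagt

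The last set holds the leading cell-cycle pair of the egg and 6 miRNAs that were high in larvae and low in the egg.
miR-998-y: tAGCACCAtgggattcagctca
sfr-miR-11-3p: cATCACAGtcagagttctagct
miR-1-y: tGGAATGTaaagaagtatggag
miR-31-x: aGGCAAGAagtcggcatagctgt
sfr-miR-277-3p: tAAATGCActatctggtacgaca
sfr-miR-281-5p: aAGAGAGCtatccgtcgacagt
sfr-miR-6094-3p: tATTCGAGacctctgctgatcct
miR-1175-x: tGGAGGTGtgatctcttcact

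Nearly as many miRNAs were lower in the egg as were higher. Of 660 rows left after merging repeats, 259 averaged 10 or more counts per library and were tested, and edgeR's quasi-likelihood test with Benjamini-Hochberg adjustment called 123 of them at 0.05, which is 47.5%. The egg was higher for 64 rows, 24.7% of those tested, and lower for 59, 22.8%. Counts over lists of miRNAs below can be read against these shares, and rows of a list are often arms or forms of the same hairpin. Each of the 123 lay outside the range of the 6 instars, whereas over all tested rows the egg lay above every instar in 95, 36.7%, and below every instar in 98, 37.8%. Where a called miRNA below is said not to overlap the larval range, this adds no support to its call. An exact permutation test over libraries cannot go below p = 0.286 (two-sided) for 1 library against 6, so no single miRNA could be called by it.

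The split between higher and lower depends on the scaling. The median log2 difference of all tested rows, egg minus larvae, was -1.20 with TMM factors, -0.81 with the size factors of DESeq2 and -1.72 with plain library totals, and the calls then numbered 73 higher and 56 lower with size factors and 54 higher and 68 lower with library totals. No named miRNA changed its direction under these scalings, and the median of -1.20 is the level against which the differences below can be read. Leaving out instar 3 reduced the calls to 99, and leaving out instar 1 raised them to 150.

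**Figure D1:**
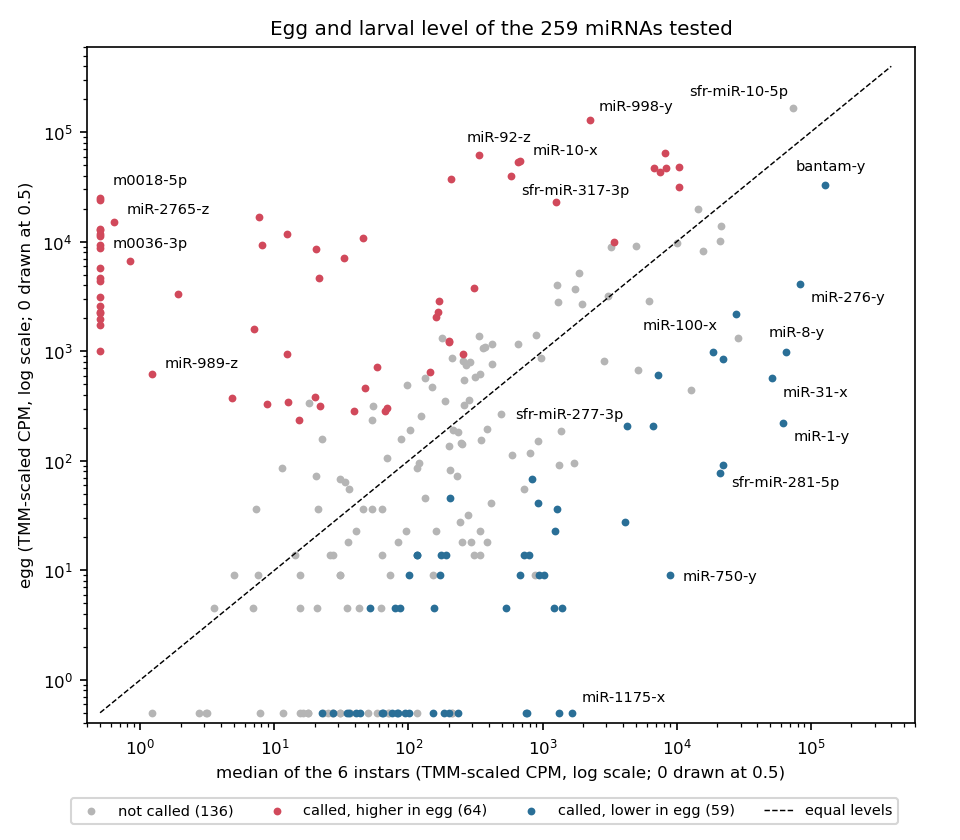
Egg level against the median level of the 6 instars for the 259 miRNAs tested, both as TMM-scaled CPM on log axes with 0 drawn at 0.5; red points were called higher in the egg (64), blue points lower (59) and grey points not called (136). The points along the left edge are miRNAs with a larval median of 0, and those along the lower edge had no count in the egg.

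The egg resembled none of the instars closely. Over the 259 tested rows its rank correlation with single instars ran from 0.123 with instar 5 to 0.294 with instar 1, while pairs of instars ranged from 0.599 to 0.966. The share of counts held in common with the egg fell between 21.9% and 35.0%, against 59.8% to 92.8% between instars. These are descriptions across rows, which are not replicates and share a library's scaling. The egg had its highest rank correlation outside the instars with the day 4 adult female, at 0.415. By share of counts held in common, that library stood at 30.9%, below the 35.0% of instar 1. Among the called miRNAs, as a description with no test, instar 1 was the larval library nearest to the egg most often: 33 of the 64 higher rows had their highest larval level in instar 1, 51.6% against 35.1% of all tested rows, and 30 of the 59 lower rows had their lowest level there, 50.8% against 29.7%. Some higher rows, such as m0067-3p and m0074-3p, had 1 larval count in all, which fell in instar 1. Instar 1 had 703557 counts, against 230451 to 331270 in instars 2 to 5. The part of depth was not tested.

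The members of the Hox gene cluster, which sets the identity of body segments, split by form: the main form of miR-10 was the most abundant miRNA of the egg but was not called, while a shifted form was. The main 5p arm sfr-miR-10-5p had 166097 CPM in the egg and a lowest, median and highest level of 67668, 74254 and 185729 CPM in larvae. The highest larval value was in instar 1 and lay above the egg, and the difference, log2 0.86 with an approximate SE of 0.56, was not called (adjusted p = 0.226 by edgeR). Without instar 1 it was called (adjusted p = 0.00288, edgeR). The shifted form miR-10-x had 54259 CPM in the egg and 564, 684 and 1066 CPM in larvae, with no overlap (log2 6.21, SE 0.36, adjusted p = 1.67e-05, edgeR). The rows sfr-miR-10-5p and miR-10-x overlap in sequence, and how the authors' counting divided reads between them is not given in the sources used here. The longer shifted form miR-10-z rose with it, from a larval median of 7.05 CPM to 1596 CPM in the egg (adjusted p = 0.000166, edgeR). The instars held 23 counts of miR-10-z in all, so it passed the count filter through its 350 egg counts. The 3p arm form miR-10-y had 648 CPM against 75.9, 145 and 175 CPM, and its call (log2 2.27, adjusted p = 0.00931 by edgeR) was lost without instar 3 (adjusted p = 0.0513), without instar 6 (0.0781) and with library totals (0.0547).

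The Hox-encoded iab-4-x, which lies in the bithorax region in flies, was lower in the egg. Its 3 egg counts made 13.7 CPM, against 84.2, 117 and 229 CPM in larvae, a pooled larval level 10.8 times that of the egg with a 95% counting interval of 3.7 to 52.7. Its edgeR call (adjusted p = 0.0296) was lost without instar 2 (adjusted p = 0.0589), instar 3 (0.0554) or instars 1 and 2 together (0.0507), and also with no filter (0.0796) and without the predicted rows (0.0834). miR-993-x, a relative of miR-10 in the same cluster, had 816 CPM in the egg and 180.0, 253 and 709 CPM in larvae and was not called (adjusted p = 0.188 by edgeR), though it lay above every instar and was called without instar 1 (adjusted p = 0.0300). In all, 3 of the 10 tested rows of the cluster were higher and 2 lower, and their median was 1.27 on the log2 scale. Without instar 3, 2 rows were called higher and 0 lower.

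miR-11 and miR-998, which in flies lie together in an intron of the cell-cycle gene E2f1, were both high in the egg. miR-998-y had 130401 CPM in the egg and 1555, 2259 and 21390 CPM in larvae, log2 4.52, SE 1.15, adjusted p = 0.0151 by edgeR. The groups did not overlap, and instar 1 held the highest larval value. The call was lost without instar 3 (adjusted p = 0.0533) and without instar 6 (adjusted p = 0.0656), at log2 differences of 4.03 and 3.62. sfr-miR-11-3p, which in flies holds back pro-apoptotic genes, had 65084 CPM against 5464, 8141 and 16685 CPM (log2 2.76, SE 0.55, adjusted p = 0.00494, edgeR). Its other arm sfr-miR-11-5p, at 319 CPM against 3.99, 22.0 and 37.4 CPM, was also called (adjusted p = 0.0108, edgeR). With 70 egg counts and 51 counts over the 6 instars, sfr-miR-11-5p passed the count filter only through the egg. Of the 6 tested rows of the pair 5 were higher and 0 lower, with a median log2 difference of 4.25. Among the 5 is miR-998-z, which had 22 larval counts in all and was likewise admitted through the egg.

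The miR-92 family, abundant in early fly embryos and ovaries, separated the egg from every instar. miR-92-z had 62513 CPM in the egg and 187, 337 and 420 CPM in larvae (log2 7.61, SE 0.41, adjusted p = 1.67e-05, edgeR). sfr-miR-92a-3p had 37638 CPM against 168, 209 and 321 CPM (log2 7.38, SE 0.40, adjusted p = 1.67e-05, edgeR). The longer form miR-92-y had 9425 CPM against 0, 8.05 and 19.6 CPM (log2 9.99, SE 1.17, adjusted p = 0.000482, edgeR). Larvae held 21 counts of miR-92-y in all, so this row passed the count filter through its 2067 egg counts. The larval values stayed within a narrow band, and none came near the egg. Summed over the 4 rows of the seed, the family took 8.42% of the egg counts and at most 0.094% of those of an instar.

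Among ovary miRNAs the directions split. miR-989-z, which is strongly enriched in insect ovaries, had 620 CPM in the egg and 0, 1.23 and 12 CPM in larvae (log2 7.71, SE 1.32, adjusted p = 0.00271, edgeR). It had 136 egg counts and 6 larval counts in all, so it passed the count filter through the egg. miR-184-y, needed for egg production in flies and present in many other tissues, had 2198 CPM in the egg and 19460, 27853 and 61856 CPM in larvae (log2 -3.86, SE 0.84, adjusted p = 0.00768, edgeR). Neither overlapped the larval range. Over the whole marker list for ovary and maternal RNA, 4 of 6 tested rows were higher and 2 lower, and the list summed to 112540 CPM in the egg and to between 20296 and 62703 CPM in larvae. The higher rows include miR-989-z and miR-92-y, which were tested only because of their egg counts. Of the wider list of early embryonic miRNAs, 4 of 7 tested rows were higher, miR-92-y among them. The 1 lower row was miR-31-x, which patterns the early fly embryo. miR-31-x had 570.0 CPM in the egg and 37903, 51747 and 63873 CPM in larvae, log2 -6.46, SE 0.61, adjusted p = 0.000151 by edgeR.

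In the miR-9, miR-79 and miR-306 cluster 2 of 6 tested rows were higher and 0 lower, with a median log2 difference of 1.63, and DESeq2 called 5 higher. miR-306-x had 47282 CPM in the egg and 1760.4, 8354 and 8663 CPM in larvae (log2 2.69, SE 0.63, adjusted p = 0.0108, edgeR). miR-9-z, which limits sensory organ precursors in flies, had 19699 CPM against 11458, 14460 and 16697 CPM and was not called (adjusted p = 0.279, edgeR, and 0.00873 by DESeq2), while its longer form miR-9-x, at 3753 CPM against 240, 307 and 401 CPM, was (log2 3.59, adjusted p = 0.000891, edgeR). In the miR-279 family, which shapes carbon dioxide sensing neurons and JAK/STAT signalling in flies, sfr-miR-279a-3p had 31915 CPM against 5500, 10479 and 13214 CPM (log2 1.67, adjusted p = 0.0156, edgeR). miR-279-y had 43534 CPM against 3786, 7480 and 14899 CPM (log2 2.36, adjusted p = 0.0151, edgeR), and sfr-miR-279b-3p had 10036 CPM against 2310, 3389 and 3987 CPM (log2 1.61, adjusted p = 0.0153, edgeR). All 5 tested rows of the family lay above every instar and 3 were called. With library totals, and also without instar 3, 1 of the 5 was called, miR-279-y then standing at adjusted p = 0.0692 and 0.0697 and sfr-miR-279b-3p at 0.107 and 0.0567. Without instar 6 these 2 rows stood at 0.111 and 0.0927. Tested against a 2-fold minimum, sfr-miR-279a-3p and sfr-miR-279b-3p were not called (adjusted p = 0.0691 and 0.0744, edgeR).

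**Figure D2:**
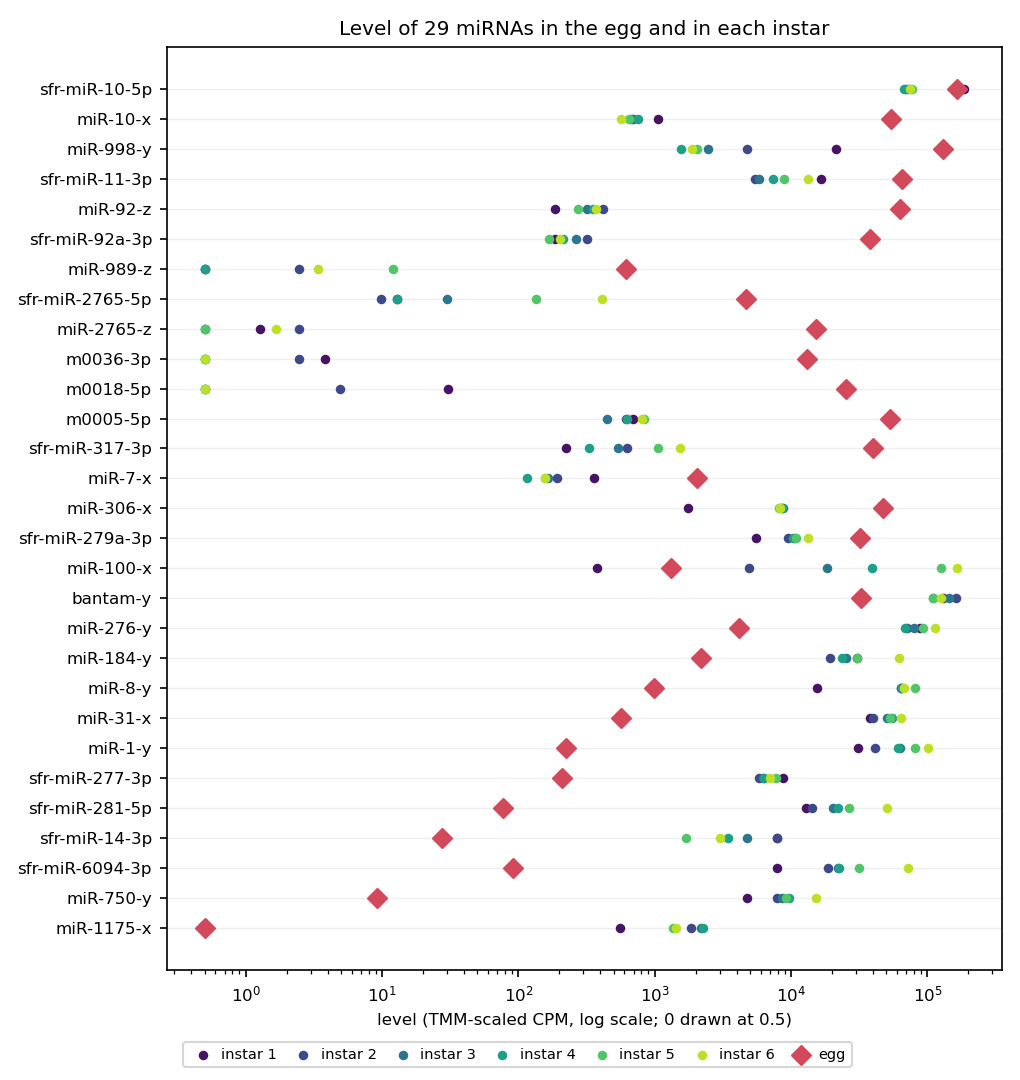
Level of 29 miRNAs in the egg (red diamonds) and in each of the 6 instars (circles from dark for instar 1 to light for instar 6), as TMM-scaled CPM on a log axis with 0 drawn at 0.5. The egg lies to the right of every instar for miRNAs such as miR-92-z and miR-10-x, to the left for those such as miR-31-x and miR-1-y, and within the larval spread for sfr-miR-10-5p and miR-100-x.

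The largest differences belonged to miRNAs that larvae hardly held, and these passed the count filter through the egg. m0036-3p had 13101 CPM in the egg and 0, 0 and 3.84 CPM in larvae, from 4 larval counts in all (log2 12.95, SE 1.13, adjusted p = 0.00013, edgeR). m0041-3p, with the same seed, had 9279.5 CPM against 0, 0 and 3.84 CPM (log2 12.46, SE 1.14, adjusted p = 0.000146, edgeR). For m0067-3p and m0074-3p the larvae held 1 count each, and the egg exceeded the pooled larval level 12234 times (95% counting interval 2191 to 483678) and 8128 times (1454 to 321510). m0034-3p, m0035-3p and m0036-3p are listed with 1 sequence and unequal counts, as are m0045-3p and m0046-3p, so the same reads may be counted more than once. The seed family of 9 rows took 5.96% of the egg counts, 3.69% with 1 row per sequence, and at most 0.004% of the counts of an instar (log2 13.19, SE 1.92, adjusted p = 0.0018, edgeR).

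The seed family of m0018-5p followed the same pattern. m0018-5p had 25176 CPM in the egg and 0, 0 and 30.7 CPM in larvae, with the highest value in instar 1 (log2 11.73, SE 1.73, adjusted p = 0.00138, edgeR). m0063-5p had 5746 CPM against 0, 0 and 5.12 CPM (log2 11.85, SE 1.30, adjusted p = 0.000353, edgeR). The 5 rows of the family took 4.69% of the egg counts, 3.12% with 1 row per sequence, and between 0 and 0.009% of the counts of an instar. m0098-3p had 999 CPM in the egg and no count in any instar, at least 869-fold higher, and m0102-3p, with 1 larval count, exceeded the pooled larval level 5784 times (1033 to 228910).

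Other predicted miRNAs were present in most or all instars, at lower levels than in the egg. m0005-5p had 53092 CPM in the egg and 445, 656 and 831 CPM in larvae (log2 6.31, SE 0.36, adjusted p = 1.67e-05, edgeR), and its near copy m0026-5p had 10876 CPM against 20.2, 45.7 and 79.4 CPM (adjusted p = 9.94e-05, edgeR). m0015-5p had 22845 CPM against 522, 1270.1 and 1718 CPM (log2 4.32, adjusted p = 0.000675, edgeR), and m0058-5p had 8523 CPM against 8.42, 20.3 and 52.4 CPM (log2 8.37, adjusted p = 0.00016, edgeR). None of these overlapped the larval range, as was the case for all 123 called rows. m0030-5p, at 16940.3 CPM against 0, 7.61 and 402 CPM, lost its call (adjusted p = 0.0207, edgeR) without instar 3, at adjusted p = 0.0558. m0001-5p and m0002-5p, 1 sequence listed with unequal counts, had 48545 and 47223 CPM in the egg. Their larval levels were 6811, 10478 and 14855 CPM and 3796, 6741 and 9509 CPM, and both were called (log2 2.20 and 2.86, adjusted p = 0.00466 and 0.00248, edgeR).

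Predicted miRNAs as a whole made up 29.6% of all egg counts, against 2.04% to 3.71% in the instars. With 1 row per sequence the shares were 23.4% in the egg and 1.58% to 2.77% in the instars. Of 63 tested predicted rows, 35 were higher in the egg and 7 lower, with a median log2 difference of 2.86. The other 114 of 177 predicted rows had too few counts to test. Because the filter takes the mean over all 7 libraries, egg counts alone could admit a row. The split and the median therefore depend partly on this filter. With 1 row per sequence 29 of 57 were higher and 7 lower, with a median of 2.30. Among the 196 tested rows with a family or species name the split was 29 higher and 52 lower, with a median of -2.65, or -1.58 when rows at 0 were set to their bounds.

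miR-2765, a miRNA of moths and butterflies, changed mainly in its longer forms. miR-2765-z, with 2 more bases than the species form, had 15157 CPM in the egg and 0, 0.640 and 2.45 CPM in larvae from 3 counts, 13186 times the pooled larval level (4508 to 63973). The species form sfr-miR-2765-5p had 4651 CPM against 9.81, 21.4 and 412 CPM (log2 5.50, SE 1.58, adjusted p = 0.0229, edgeR), with the highest value in instar 6, and lost its call without instar 3 (adjusted p = 0.0501). miR-2765-x, ending in another base, had 1719 CPM against at most 2.45 CPM. Both miR-2765-z and miR-2765-x passed the count filter through the egg. Over the list of moth miRNAs 4 of 21 tested rows were higher and 6 lower.

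**Figure D3:**
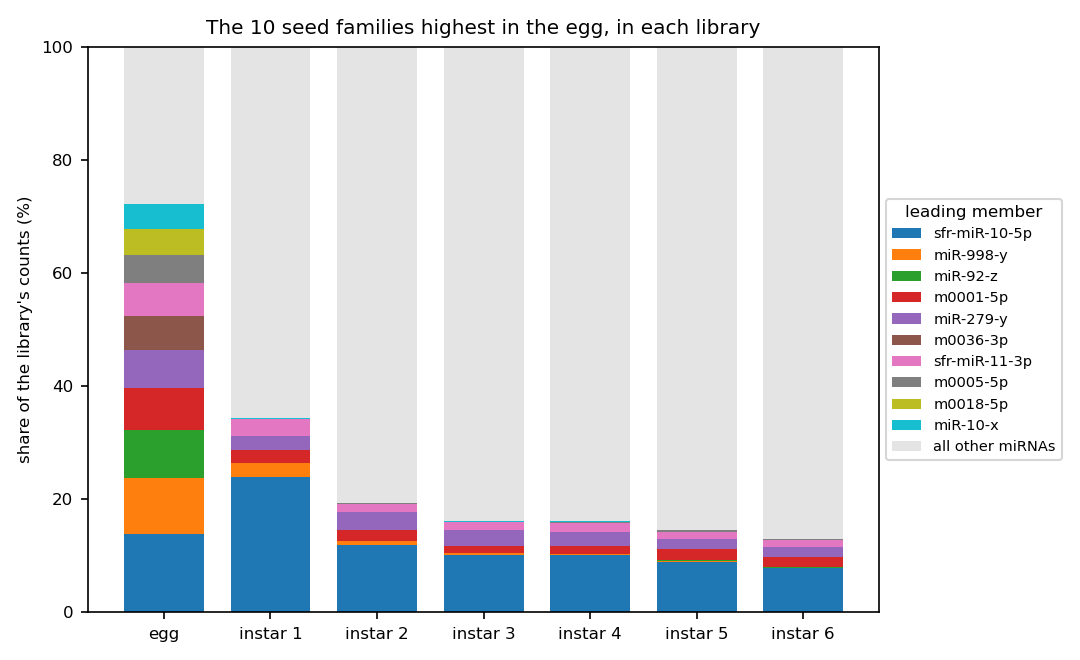
Share of each library's counts, in percent, taken by the 10 seed families with the most counts in the egg, each named by its leading member, with all other miRNAs in grey. The family of sfr-miR-10-5p, at 13.8% of the egg, was also large in every instar, whereas those of miR-92-z (8.42%), m0036-3p (5.96%), m0005-5p (4.91%), m0018-5p (4.69%) and miR-10-x (4.33%) stayed at or below 0.298% in every instar.

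Sums over seed families do not depend on how reads were divided between forms of 1 seed. Of 180 families tested, edgeR called 74, 41.1%: 36 higher in the egg, 20.0%, and 38 lower, 21.1%. With library totals the calls were 28 higher and 47 lower. Outside the egg and the larvae, the families of miR-92-z, m0005-5p, miR-10-x and m0036-3p were highest in the day 4 adult female, at 0.901%, 1.39%, 0.642% and 0.042% of its counts, and the family of m0018-5p reached at most 0.00109% there. The larval share of the m0005-5p family includes miR-199-x, a vertebrate-named row, and was highest in instar 5 at 0.298%.

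The miR-277, miR-317 and miR-34 cluster, linked to metabolism and ageing in flies, did not move as a unit. sfr-miR-317-3p had 39818 CPM in the egg and 223, 583 and 1527 CPM in larvae (log2 5.79, SE 0.76, adjusted p = 0.000823, edgeR). sfr-miR-277-3p, which controls breakdown of branched-chain amino acids in flies, had 209.8 CPM in the egg and 5834, 6667 and 8764 CPM in larvae (log2 -5.06, SE 0.63, adjusted p = 0.00057, edgeR). Neither overlapped the larval range. sfr-miR-34-5p, a target of ecdysone signalling in flies, had no count in the egg and 48.6, 93.8 and 601 CPM in larvae, at least 16.1-fold lower. Its call (adjusted p = 0.0405, edgeR) was lost without instar 1 (adjusted p = 0.0520), instar 5 (0.0589) or instars 1 and 2 together (0.0539). Of 8 tested rows of the cluster 2 were higher, both 3p forms of miR-317, and 5 lower.

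The cluster of miR-2, miR-13 and miR-71, which holds the K-box miRNAs, had larval ranges close to the egg. sfr-miR-2a-3p had 9061 CPM in the egg and 3902, 5002 and 8773 CPM in larvae (adjusted p = 0.227, edgeR), and sfr-miR-2b-3p had 5135 CPM against 1629, 1887 and 3636 CPM (adjusted p = 0.0941, edgeR). In 6 of 8 tested rows the egg lay above every instar, but 1 was called, sfr-miR-2a-5p, at 301 CPM against 39.9, 69.2 and 119 CPM (adjusted p = 0.0342, edgeR). Leaving out instar 2, 3, 4 or 6 removed that call, at adjusted p-values of 0.0563, 0.141, 0.0668 and 0.201, as did library totals (0.144), no filter (0.0972), a 2-fold minimum (0.0820) and rows unmerged (0.0611). The cluster had 4 rows called higher under DESeq2's size factors and 0 under library totals. Without instar 1, sfr-miR-2a-3p and sfr-miR-2b-3p were called higher (adjusted p = 0.0296 and 0.0102, edgeR).

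Muscle miRNAs were nearly absent from the egg. miR-1-y, the main muscle miRNA of animals, had 223 CPM in the egg and 31032, 61952 and 101385 CPM in larvae (log2 -8.14, SE 1.06, adjusted p = 0.000796, edgeR). miR-133-z, its partner in muscle, had 13.7 CPM from 3 counts against 363, 787 and 952 CPM, a pooled larval level 55.5 times that of the egg (19.0 to 269). The form miR-1-z had no count in the egg and at least 15.5-fold more in larvae. Of 4 tested rows 3 were lower, 0 higher, and the list summed to 274 CPM in the egg and to between 31987 and 102460 CPM in larvae. In such libraries fewer cells of a type and less RNA per cell cannot be told apart.

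miRNAs of growth and fat metabolism were lower in the egg, with 7 of 9 tested rows called and none higher. bantam-y, which promotes growth and blocks apoptosis in flies, had 32768 CPM in the egg and 109802, 127555 and 163297 CPM in larvae (log2 -1.99, SE 0.39, adjusted p = 0.00418, edgeR), 0.79 below the median of all tested rows, and without the predicted rows the call was lost (adjusted p = 0.0517). miR-8-y, which tunes insulin signalling in the fly fat body, had 989.5 CPM against 15634, 64999 and 81378 CPM (log2 -5.91, SE 1.11, adjusted p = 0.00387, edgeR). sfr-miR-14-3p, a regulator of fat and of ecdysone signalling in flies, had 27.4 CPM against 1693, 4105 and 7917 CPM (log2 -7.44, SE 1.42, adjusted p = 0.00414, edgeR). miR-278-y, linked to insulin response in flies, had 1 egg count against 288, 1223 and 2055 CPM, a pooled larval level 237 times that of the egg (42.6 to 9386). Its other arm miR-278-x had 119 CPM against 251, 808 and 1218 CPM and was not called (adjusted p = 0.0661, edgeR). It lay below every instar and was called lower under 7 alternatives, among them DESeq2 (adjusted p = 0.0309), limma (0.0437), and edgeR without instar 1 (0.0115) or instar 6 (0.0470). The call of sfr-miR-14-5p (adjusted p = 0.0390, edgeR), at 602 CPM against 1621, 7260.0 and 9429 CPM, was lost without instar 2, 3 or 4, at adjusted p-values of 0.0658, 0.0755 and 0.0681, and without instars 1 and 2 together (0.0623). It was also lost with DESeq2's size factors (0.0546), a 2-fold minimum (0.0533), all 18 libraries (0.0722) and the predicted rows left out (0.0850).

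All 6 tested rows of the list linked to ecdysone and moulting were lower, against 22.8% of all tested rows. The list has 9 rows, of which several are arms or forms of miR-281 and the rest belong to miR-307 and miR-252. Its rows are therefore not independent. sfr-miR-281-5p, which regulates the ecdysone receptor in the silkworm, had 77.5 CPM in the egg and 12920, 21258 and 50401 CPM in larvae (log2 -8.29, SE 1.27, adjusted p = 0.00151, edgeR). Its 3p arm sfr-miR-281-3p had 1 egg count against 850.1, 1403 and 1835 CPM, a pooled larval level 293 times that of the egg (52.5 to 11573). miR-252-x had 2 egg counts against 136, 173 and 330 CPM, 25.7 times (7.1 to 212). The list summed to 109 CPM in the egg and to between 15146 and 55074 CPM in larvae.

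The miR-750 and miR-1175 cluster, found in the midgut of mosquitoes, was nearly absent from the egg, and all 5 of its tested rows were called lower, with a summed level of 18.2 CPM in the egg and 6590 to 19775 CPM in larvae. miR-1175-x had no count in the egg and 559, 1646 and 2273 CPM in larvae, at least 103-fold lower. miR-1175-y, also at 0, was at least 96.2-fold lower. miR-750-y had 2 egg counts, 9.12 CPM, against 4774, 8920.3 and 15338 CPM, and the pooled larval level was 995 times that of the egg (275 to 8213). miR-282-x and miR-11980-z, at 0 in the egg, were at least 52.7-fold and 42.7-fold lower. miR-745-y, also at 0, lost its call (adjusted p = 0.0390, edgeR) without instar 3 or 4, at adjusted p = 0.0513 and 0.0553.

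sfr-miR-6094-3p, a miRNA of moths and butterflies, had 91.2 CPM in the egg and 7947, 22309 and 71739 CPM in larvae, lowest in instar 1 and highest in instar 6 (log2 -8.31, SE 1.70, adjusted p = 0.00565, edgeR). miR-276-y, involved in memory in flies, had 4136 CPM against 68389, 83758 and 112865 CPM (log2 -4.37, SE 0.51, adjusted p = 0.00045, edgeR). In the miR-12, miR-283 and miR-304 cluster all 3 tested rows were lower, miR-283-x with 209.8 CPM against 2137, 4298 and 4342 CPM (log2 -4.21, SE 0.75, adjusted p = 0.00309, edgeR). The egg lay below every instar for each of these.

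For several groups the larval levels spread widely, and edgeR called few or no rows. The let-7 complex, the temporal regulators that rise towards metamorphosis in insects, had 0 of 7 tested rows called by edgeR, 0 at an unadjusted p under 0.05, 3 called lower by DESeq2 and 0 by limma. miR-100-x had 1309 CPM in the egg and 376, 28761 and 165311 CPM in larvae, from the lowest in instar 1 to the highest in instar 6 (log2 -5.49, SE 3.32, adjusted p = 0.196, edgeR), and let-7-x had 91.2 CPM against 1.28, 1333 and 7930.0 CPM (adjusted p = 0.291, edgeR). Both egg values lay between those of instar 1 and instar 2. miR-100-x was called when instars 1 and 2 were left out (adjusted p = 0.0371, edgeR) and by the DESeq2 Wald test (adjusted p = 0.0343).

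miR-275-y and miR-305-x, which act in digestion in mosquitoes and in the gut of flies, were likewise not called (adjusted p = 0.183 and 0.0670, edgeR), with egg levels of 670 and 442 CPM against larval medians of 5173 and 12814 CPM. miR-305-x lay below every instar. Both were called lower without instar 1 (adjusted p = 0.0327 for miR-275-y and 0.00145 for miR-305-x, edgeR), miR-305-x also by DESeq2 (adjusted p = 0.00711), and all 3 rows of that cluster once instars 1 and 2 were left out. The sensory miRNA miR-263-x had 13780.2 CPM against 17423, 21503 and 33535 CPM (adjusted p = 0.222, edgeR), and 0 of 4 sensory rows were called by edgeR, 0 at an unadjusted p under 0.05, 1 by DESeq2 and 0 by limma. Of the nervous system list 1 of 5 tested rows was called by edgeR and 0 were lower, while DESeq2 and limma each called 1 higher and 1 lower. The row called by edgeR was miR-7-x, which stabilises sensory cell fate in flies, at 2034 CPM in the egg and 116, 161 and 357 CPM in larvae (log2 3.41, SE 0.58, adjusted p = 0.00248, edgeR). The neuronal markers miR-124-y and miR-137-y had 31.9 and 9.12 CPM in the egg, against larval ranges of 12 to 1129 CPM and 291 to 7267 CPM with the highest value in instar 1 (adjusted p = 0.278 and 0.0650, edgeR). miR-124-y lay within the larval range, whereas miR-137-y lay below every instar and was called lower under 7 alternatives, among them DESeq2 (adjusted p = 0.000759), limma (0.0171), and edgeR without instar 1 (0.0301) or instar 5 (0.0475).

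Within an arm, the mix of forms also set the egg apart. Forms are rows whose sequences overlap by at least 18 bases with starts at most 3 bases apart, and of 33 groups of forms with enough counts, 6 had a form whose share in the egg lay over 10 points outside the larval range, 18.2%. Shares within an arm do not depend on library scaling. miR-10-x took 24.4% of the miR-10 5p arm in the egg (exact 95% interval 24.1 to 24.8%) and between 0.57% and 1.11% in larvae. miR-2755-y, with 2 more bases than sfr-miR-2755-3p, took 18.3% (16.8 to 19.8%) against 0.64% to 0.86%. miR-9-x took 16.0% (15 to 17%) of its pair against 1.86% to 2.76%, and miR-92-y took 20.0% (19.3 to 20.8%) of its pair against 0% to 8.70%. In each of these the egg held more of the longer form.

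The 3p arm of miR-317 went the other way. The shorter sfr-miR-317-3p took 96.4% (96.0 to 96.7%) of the arm in the egg and between 22.6% and 54.6% in larvae, and the longer miR-317-y took 2.80% against 42.5% to 76.7%. miR-317-y itself, at 1158 CPM in the egg and 468, 652 and 1558 CPM in larvae, was not called (adjusted p = 0.61, edgeR). Of the miR-2755 forms, sfr-miR-2755-3p was not called, at 10251 CPM in the egg against 17059, 21063 and 29713 CPM (log2 -1.14, which is 0.06 above the median of all tested rows, adjusted p = 0.0924, edgeR). With library totals it was called lower (adjusted p = 0.0274, edgeR). The longer miR-2755-y had 2289 CPM against 116, 167 and 257 CPM (log2 3.72, SE 0.51, adjusted p = 0.000898, edgeR). The sixth group, sfr-miR-6094-3p, rests on 25 egg counts.

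**Figure D4:**
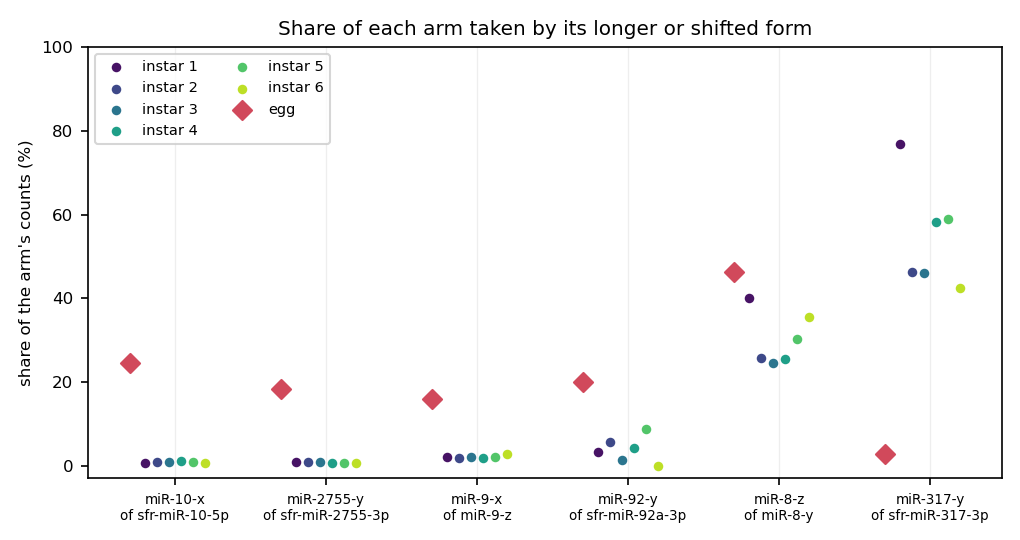
Share of an arm's counts, in percent, taken by the longer or shifted form in the egg (red diamond) and in each instar (circles from dark for instar 1 to light for instar 6), for 6 arms. The egg share was 24.4% for miR-10-x, 18.3% for miR-2755-y, 16.0% for miR-9-x and 20.0% for miR-92-y, above every instar, 46.3% for miR-8-z, above by less than 10 points, and 2.80% for miR-317-y, below every instar.

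The balance between the arms of a hairpin changed in few cases. Of 77 pairs tested with limma on log2 ratios of CPM with 1 CPM added, 11 were called, 14.3%: 7 towards the 5p arm, 9.09%, and 4 towards the 3p arm, 5.19%. In sfr-miR-317 the log2 ratio of 5p to 3p was -9.74 in the egg and ran from -2.85 to -0.27 in larvae (difference -8.26, SE 1.10, adjusted p = 0.00234, limma). This ratio takes sfr-miR-317-3p alone as the 3p arm. It leaves out miR-317-y, which held 2.80% of that arm in the egg and 42.5% to 76.7% in larvae. The difference therefore includes the change of forms given above. The 5p arm sfr-miR-317-5p was lower in the egg, at 45.6 CPM against 184, 205 and 246 CPM (adjusted p = 0.0215, edgeR), a call lost with all 18 libraries (0.322), with no filter (0.106) and without the predicted rows (0.0599). For miR-10, the ratio of miR-10-x to miR-10-y was 6.39 against 2.19 to 3.08 (difference 3.92, SE 0.82, adjusted p = 0.00937, limma). These are the minor forms of that hairpin. The ratio of its main arms, sfr-miR-10-5p to sfr-miR-10-3p, was 4.22 in the egg, within the larval range of 3.98 to 5.42, and was not called (difference -0.48, adjusted p = 0.781, limma).

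miR-278 and sfr-miR-14 had the 3p arm lower in the egg by more than the 5p arm. The ratio of miR-278 was 4.43 in the egg and -1.73 to 0.005 in larvae (adjusted p = 0.00528, limma), and that of sfr-miR-14 was 4.41 against -0.90 to 1.07 (adjusted p = 0.0163, limma). miR-282 and miR-745 had no egg count in either arm, so their egg ratio is set by the added 1 CPM and says nothing of the arms. The same holds for miR-137, with 2 egg counts, a 5p arm at 0 CPM in the egg and a larval median of 0 CPM for that arm, so that its ratio follows the level of the 3p arm. Adding 0.1 CPM left 5 pairs called and adding 5 CPM gave 20, and sfr-miR-317, sfr-miR-10491, miR-1, miR-278 and miR-10 were called at every setting tried. The other 6 lost their calls with 0.1 CPM added, and that of miR-2766 was also lost without instar 2, 3 or 6. For sfr-miR-10491 the 3p arm had 0 CPM in the egg and 16.6 to 51.7 CPM in larvae. The size of its egg ratio therefore depends on the CPM added. The pair miR-10491-x and miR-10491-y, with 8199 CPM of the 3p arm in the egg, was not called (adjusted p = 0.208, limma).

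**Figure D5:**
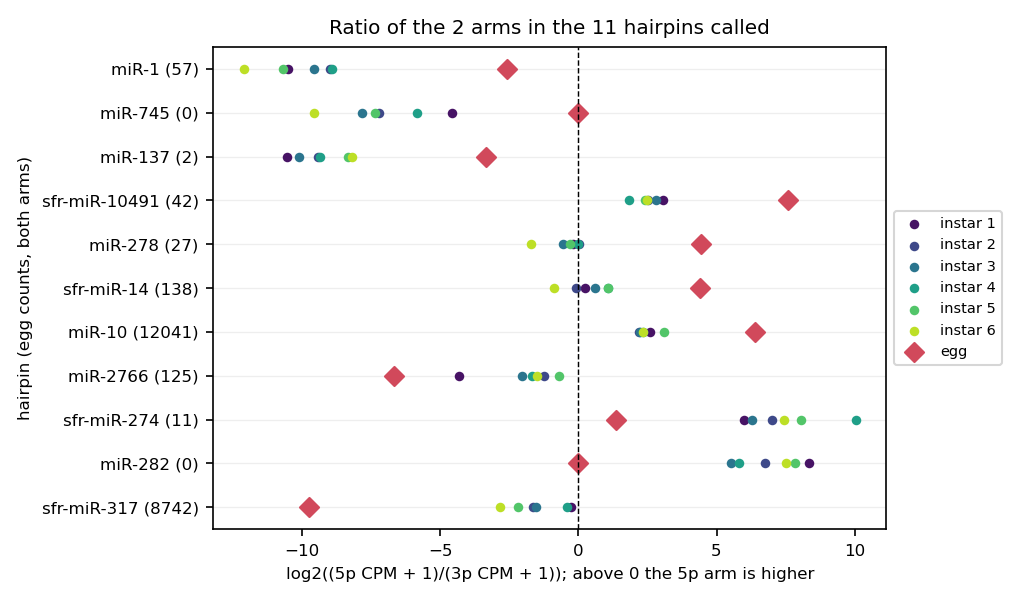
Log2 ratio of 5p to 3p arm, each with 1 CPM added, for the 11 hairpins called, in the egg (red diamonds) and in each instar (circles from dark for instar 1 to light for instar 6); the number after each name is the egg count of both arms together. Points left of the dashed line have more of the 3p arm; sfr-miR-317 in the egg lies at -9.74, and the hairpins with 0 egg counts lie at 0 by construction.

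The egg also differed in the make-up of its miRNAs by length and by base 1. Sequences of 25 bases made up 5.33% of all egg counts against 0.21% to 0.48% in the instars, and those of 21 bases took 16.6% against 3.88% to 5.80%. Sequences of 23 bases took 9.02% against 20.2% to 26.4%. Base 1 was C in 20.5% of egg counts against 12% to 15.2%, and T in 66.5%, within the larval range of 60.3% to 73.6%. With 1 row per sequence C stood at 18.3% against 11.6% to 14.4%. With rows unmerged T stood at 57.7%, below the larval range of 59.4% to 72.3%. The 10 leading rows held 55.2% of the egg counts and 63.8% to 67.8% of the instars, and 39 rows made up 90% of the egg counts against 25 to 33 rows in an instar. With 1 row per sequence the leading rows held 59.4% against 64.1% to 68.5%, and 35 rows made up 90% against 24 to 32. These shares rest on the listed sequence of each row.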

How the data were processed

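Total RNA was taken with TRIzol and made into small RNA libraries with a TruSeq kit, per the labels' protocols, which speak of fewer libraries than the 18 of the series. The authors deposited raw counts, in 1 table that lists each miRNA with its sequence. Aligner, miRNA caller and build: not given in the sources used here. How reads that match several rows were counted is likewise unknown, and no genome was used, so no positions are given. All 18 count columns matched a sample, and 0 were left unused.

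The libraries of egg and larva (7 of 18) entered the fit. Rows alike in sequence and in all counts were merged (741 to 660 rows, with 61 sequences listed more than once). Sequences listed with unequal counts (10) stayed as separate rows. A near copy differs by at most 2 bases over at least 18, and 276 rows have one. Rows with a mean of at least 10 counts were tested with edgeR 4.0.16 (R 4.3.3) by the quasi-likelihood test with TMM factors and Benjamini-Hochberg adjustment at 0.05, with 5 residual degrees of freedom and a common biological coefficient of variation of 0.885. SEs are approximate, the log2 difference divided by the square root of F. Arm ratios were tested with limma 3.58.1 on log2 CPM with 1 CPM added. DESeq2 1.42.0 served as an alternative. Tables and plots used Python 3.11.15 with pandas 2.3.3, numpy 2.4.6, matplotlib 3.10.9 and scipy 1.17.1. The fits were also run on simulated counts, which varied less between libraries than these data and held no trend across instars. That run therefore gives no error rates for these data. Ratios of pooled counts have exact 95% intervals.

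Alternatives covered scaling, filter, test, design, merging and each instar left out. Named miRNAs were the 15 largest rises and 15 largest falls past the threshold with a mean level of at least 100 CPM, the 15 rows highest in the egg, the 10 highest in larvae and members of lists by role. The members and lists were chosen with earlier results of these data known.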

Additional observations from a re-analysis of the deposited data

Results flagged for a closer look

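In 27 of the 97 named miRNAs 1 instar stood apart from the other 5: its gap to the nearest of them, divided by the larval range, passed Dixon's critical value for 6 samples. Chance flags about 1 in 20 groups of normally distributed values, but the 27 cannot be set against that rate. Several flagged rows, such as miR-2765-x, m0063-5p and m0067-3p, had larval counts in 1 instar only, so their gap equals the range by construction. The flagged m0018-5p and m0020-5p share 1 sequence, and libraries were not independent across miRNAs. The flags are therefore a description. In most cases the instar that stood apart was instar 1, the larval stage nearest to the egg in time.

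Instar 1 was far above the others in miRNAs that the egg held at high levels. Its value was 21390 CPM for miR-998-y, 402.02 CPM for m0030-5p, 252.22 CPM for m0012-3p, 108.83 CPM for miR-11-y and 357.21 CPM for miR-7-x. Instar 1 was the highest larva at 30.727 CPM for both m0018-5p and m0020-5p, at 7.6818 CPM for miR-2733-z and at 5.1212 CPM for m0063-5p. The values of m0067-3p, m0074-3p and m0102-3p were each 1.2803 CPM, which is 1 count. Instar 1 also stood above the others at 185730 CPM for sfr-miR-10-5p, 8772.7 CPM for sfr-miR-2a-3p and 3636.1 CPM for sfr-miR-2b-3p. It was high for miR-137-y, at 7267.0 CPM, and for sfr-miR-263b-5p, at 11611 CPM, which the egg held at low levels.

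Instar 1 was far below the others for miR-8-y, at 15634 CPM, for miR-283-x, at 2136.8 CPM, for miR-306-x, at 1760.4 CPM, and for sfr-miR-279c-3p, at 402.02 CPM. Instar 6 stood above the others at 71739 CPM for sfr-miR-6094-3p, 61856 CPM for miR-184-y, 50401 CPM for sfr-miR-281-5p and 412.41 CPM for sfr-miR-2765-5p. Instar 5 was highest for miR-989-z at 11.981 CPM, and instar 2 for miR-2765-x at 2.4533 CPM, 1 count.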

How the results depend on the processing

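No paired analysis was possible because the egg has 1 library, and no replicate number links it to an instar. The count of 123 called miRNAs stayed within 1.5 times under every alternative run. It was 129 with size factors, 122 with library totals, 140 with no filter, 154 with the DESeq2 Wald test, 136 with limma, 117 with a 2-fold minimum, 169 with a linear term for instar, 142 with all 18 libraries, 155 with rows unmerged and 82 with predicted rows left out. With no filter the split was 89 higher and 51 lower. Chosen after seeing the data, 1 row per sequence gave 118 and leaving out instars 1 and 2 gave 143. Leaving out 1 instar gave 99 to 150 called miRNAs, 57 to 91 seed families, 10 to 13 arm ratios and 194 to 206 miRNAs outside the larval range, and a gap in the share of predicted miRNAs between egg and larval mean of 26.8 to 27.1 points. Seed families called were 75 with library totals (28 higher, 47 lower) and 87 with no filter (58 higher, 29 lower), against 74. Arm ratios called were 5 with 0.1 CPM added and 20 with 5 CPM, against 11. With a mean of at least 100 counts, 115 rows lay outside the larval range, against 193. The gap in predicted share, 26.9 points, was 42.4 with rows unmerged and 21.4 with 1 row per sequence, chosen after seeing the data. miR-9-z, not called, ran from log2 0.50 to -0.10 when 1 instar was left out, reversing without instar 6 (adjusted p = 0.855, edgeR); the cause was not tested. Of 97 named miRNAs 78 were called, and 63 kept the call under every alternative. With 3 counts worth 13.7 CPM in the egg, falls from low larval levels could not be measured beyond their bounds, and 45 tested rows had no egg count.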

Other observations

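Predicted miRNAs were not uniformly higher in the egg: of the 63 tested, 7 were lower, among them m0010-5p, named here by its place among the largest falls, with 2 egg counts, 9.12 CPM, against 161, 679 and 3011 CPM as the lowest, median and highest level in larvae. Its pooled larval level was 130 times that of the egg, with a counting interval of 36 to 1075. The call (adjusted p = 0.0420, edgeR) was lost without instar 2, 3 or 4, at adjusted p-values of 0.0587, 0.0501 and 0.0601.

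The numbered miRNAs of this species without a family name had a median whose sign depended on the scaling. Of 24 tested, 3 were higher in the egg and 1 lower by edgeR, and their median log2 difference was -0.33 with TMM factors, 0.05 under the size factors of DESeq2 and -0.79 under library totals, against -1.20, -0.81 and -1.72 for all tested rows. Without instar 3 it was -0.56. Of all rows, 22 had counts in the egg and in no instar, and 254 had counts in at least 1 instar and not in the egg.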
